A study of Mus musculus with 12 samples.

Results

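The Cyp2 cytochromes outside the Cyp2b subfamily were described in mouse liver across a high-fat diet with the compound MEC1, a high-fat diet and a normal diet. Members were all genes whose deposited symbol begins with Cyp2 followed by the subfamily letter a, c, d, e, f, g, j, r, s, t, u, w or ab and a digit. The rule used no measured value. It found 46 of 24787 genes in the deposited count tables, of which 37 had enough counts to be tested among 14172 tested genes. The other 9 had at most 10 counts in any library, and 3 of them (Cyp2j11, Cyp2j12 and Cyp2w1) had none.

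The study fed C57Bl/6 mice a high-fat diet (HFD) or a normal diet (ND) for 2 months and then allocated the HFD mice at random to MEC1 or to its vehicle. The HFD+MEC1 group received 0.5 mg/kg MEC1 into the peritoneum every day on HFD, the HFD group received vehicle by the same route on HFD, and the ND group ate ND. Whole liver RNA was sequenced in 4 libraries of each group. Sex, age, length of dosing and any injection of the ND mice are not given in the labels, nor is it stated that each library is a different mouse, so the p-values measure the spread between these samples, which may be in part technical.

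Cytochrome P450 enzymes of the Cyp2 family sit in the endoplasmic reticulum, take electrons from the reductase Por and add an oxygen atom to drugs, steroids, fatty acids or bile acids bound near their haem iron. In liver their genes are expressed mainly in hepatocytes and respond to the nuclear receptors CAR (Nr1i3) and PXR (Nr1i2) and to liver factors such as HNF4α. Mice carry many recent duplicates of these genes in clusters. Of the 45 members with an entry in GENCODE M21 (GRCm38), 16 Cyp2c members lie on chromosome 19 and 9 Cyp2d members on chromosome 15. Chromosome 4 holds 7 Cyp2j members, and chromosome 7 holds 10 members of several subfamilies. Not all of these are clustered. Cyp2e1 and Cyp2r1 lie far from the other members on chromosome 7, and Cyp2c23 lies apart from the other Cyp2c genes.

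Library totals ran from 39916405 to 51340317 counts, and the 46 rows together held 0.897 to 1.49% of the counts of a library. Hepatocyte markers were abundant in every group: their summed level over 11 genes was 82271 to 107565 CPM (counts scaled by TMM-adjusted library totals) in HFD+MEC1, 97946 to 112223 CPM in HFD and 100561 to 113530 CPM in ND. The HFD+MEC1 libraries differed among themselves in acute phase genes, the secreted proteins that hepatocytes make in inflammation. Summed over 25 such genes, replicates 1 to 4 of HFD+MEC1 held 23022, 47644, 117589 and 44339 CPM, against 21357 to 36767 CPM in HFD and 31615 to 39453 CPM in ND, so replicate 3 stood far above every other library and replicate 1 lay with the HFD libraries.

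Closely related members may share reads, because their transcripts contain the same stretches. Of all 50-base windows of the longest annotated transcript, none occurred in another gene for Cyp2c70, Cyp2c23, Cyp2f2, Cyp2j9 or Cyp2r1, and 0.514% did for Cyp2c55. The share was 38.0% for Cyp2a4 and 40.8% for Cyp2a5, which mostly match each other, and 27.5% for Cyp2a12 and 25.7% for Cyp2a22, which match each other as well. It reached 72.1% for Cyp2c40, 54.8% for Cyp2c69, 52.8% for Cyp2c67 and 43.3% for Cyp2c68. In the Cyp2d cluster it was 40.5% for Cyp2d10, 37.2% for Cyp2d11, 29.0% for Cyp2d9 and 24.2% for Cyp2d40. How the authors assigned such reads is not given in the sources used here, and levels of these genes taken singly are uncertain.

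Measured per transcript length, the family was led by Cyp2e1, which oxidises ethanol and paracetamol. Its mean over the 12 libraries was 1925 RPKM (the deposited values, which are scaled by library and transcript length), which was 36.3% of the summed RPKM of the tested members. The next were Cyp2d9 at 491, Cyp2d10 at 388, Cyp2f2 at 341 and Cyp2d26 at 335 RPKM, then Cyp2c29 at 268 and Cyp2c70 at 247 RPKM. Of the 37 tested members, 12 averaged at least 100 RPKM, 12 between 10 and 100, 6 between 1 and 10 and 7 under 1. Cyp2a22, Cyp2a4, Cyp2c39, Cyp2c53-ps, Cyp2d34, Cyp2g1 and Cyp2s1 made up the lowest band, so their fold changes concern rare transcripts.

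The order depended on the group. Cyp2c70 averaged 191 ± 56.5 RPKM in HFD+MEC1, 103 ± 35.2 RPKM in HFD and 446 ± 77.4 RPKM in ND (SD, n = 4 each), which placed it below Cyp2c29 in HFD and above it in ND. Cyp2c29 had 248.8 ± 26.3 RPKM in HFD and 346.5 ± 63.8 RPKM in ND. Cyp2f2 averaged 284 ± 53.4, 245 ± 9.58 and 494 ± 63.6 RPKM in HFD+MEC1, HFD and ND. Cyp2e1 stayed above every other member in all 3 groups, at 2043 ± 593, 2167 ± 369 and 1564 ± 148 RPKM in HFD+MEC1, HFD and ND. The neighbours Cyp2f2 and Cyp2d26 in that order differed by less than the spread between replicates over the 12 libraries, but changed places between HFD and ND.

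**Figure D1:**
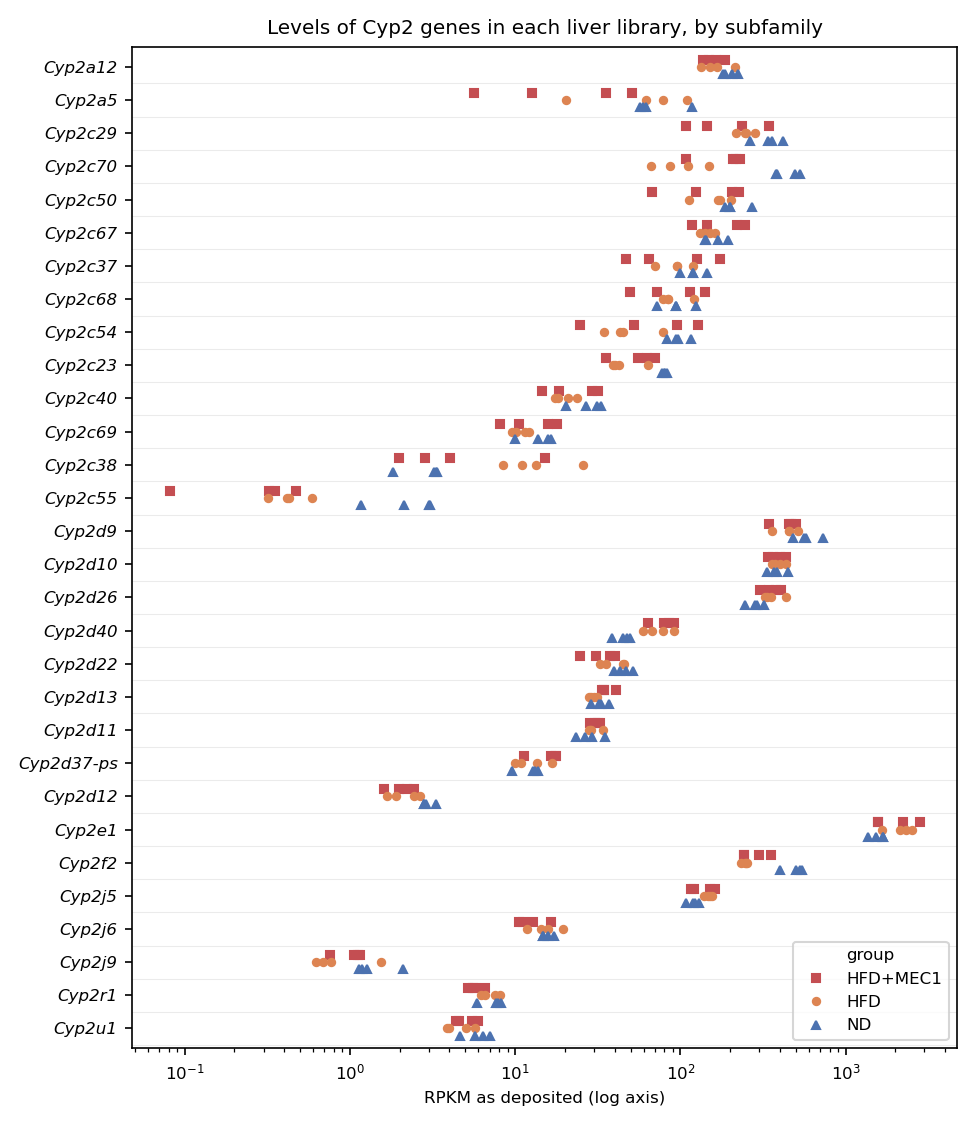
Deposited RPKM on a log axis of the 30 tested members that averaged at least 1 RPKM, each point a library, with HFD+MEC1 above HFD above ND within a gene and genes ordered by level within a subfamily. Cyp2e1 lies above all others. The ND points of Cyp2c70, Cyp2f2, Cyp2c55, Cyp2c23 and Cyp2d12 lie to the right of all points of the other groups.

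Summed over subfamilies, the Cyp2c genes held 2692 ± 885 CPM in HFD+MEC1, 2455 ± 125 CPM in HFD and 4137 ± 725 CPM in ND (SD, n = 4 each). The highest HFD+MEC1 library reached 3443 CPM and the lowest ND library had 3623 CPM, so neither of the groups on HFD overlapped ND. The Cyp2d genes were close together, at 2824 ± 266, 2825 ± 149 and 3124 ± 365 CPM in HFD+MEC1, HFD and ND. Cyp2a sums were 390 ± 82.3, 490 ± 132 and 611 ± 124 CPM, and Cyp2j sums 686 ± 98.2, 740 ± 23.5 and 657 ± 66.0 CPM in the same order. All 46 rows together held 11681 ± 2374 CPM in HFD+MEC1, 11744 ± 1017 CPM in HFD and 13356 ± 1444 CPM in ND. These sums are descriptions without a test.

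**Figure D2:**
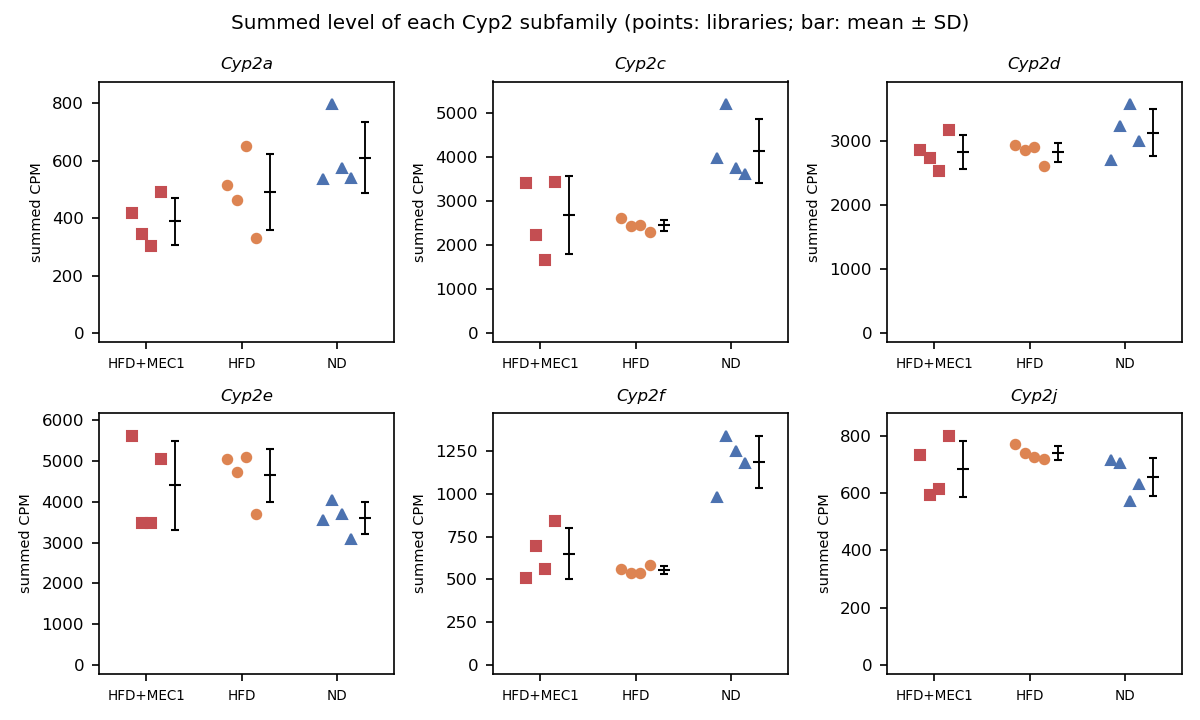
Summed CPM of 6 subfamilies in each library (points), with the mean ± SD of 4 libraries beside them and axes that include 0, for HFD+MEC1, HFD and ND from left to right. All ND libraries lie above the others for Cyp2c and Cyp2f, and the Cyp2c points of HFD+MEC1 run from 1676 to 3443 CPM.

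HFD livers were set against ND livers to see how these genes differed with diet. On HFD 5 members fell and 2 rose of 37, and 30 did not pass the test (edgeR quasi-likelihood test, Benjamini-Hochberg adjusted p under 0.05, with the adjustment made across the 14172 genes). Cyp2f2, Cyp2c70, Cyp2c55, Cyp2c23 and the pseudogene Cyp2c53-ps fell, and Cyp2d40 and Cyp2a22 rose. The background was 6.30% of all tested genes called, 3.35% higher and 2.95% lower. The median log2 fold change of the tested members was -0.29, against 0.00 (-0.0035) over all tested genes. A negative fold change was found for 28 of 37 members, against 50.6% of all tested genes. At an unadjusted p under 0.05 there were 19 members, 5 higher and 14 lower, where the background was 20.7% in all, 10.5% higher and 10.2% lower. In bulk liver, fewer cells of a type and less RNA per cell cannot be told apart.

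Groups did not overlap for 14 members, 9 lower and 5 higher, where 14.3% of all tested genes had no overlap, 7.46% higher and 6.81% lower. Besides the 7 called genes these were Cyp2c29, Cyp2c54, Cyp2d9 and Cyp2d12, lower in every HFD library than in any ND library, and Cyp2c38, Cyp2d26 and Cyp2j5, higher in every HFD library. Without any 1 library of ND or HFD the number of called members was 4 to 7, while all genes called ranged from 423 to 911. The number of members was 4 without ND replicate 1 or ND replicate 4, where 562 of 14356 and 473 of 14330 tested genes were called. With only the HFD and ND libraries in the fit it was 11 of 37, 3 higher and 8 lower, where 8.36% of the 13864 genes of that fit were called, 4.25% higher and 4.11% lower. DESeq2 called 10, 4 higher and 6 lower, where 9.12% of the 15052 genes it gave an adjusted p were called, 4.74% higher and 4.38% lower.

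**Figure D3:**
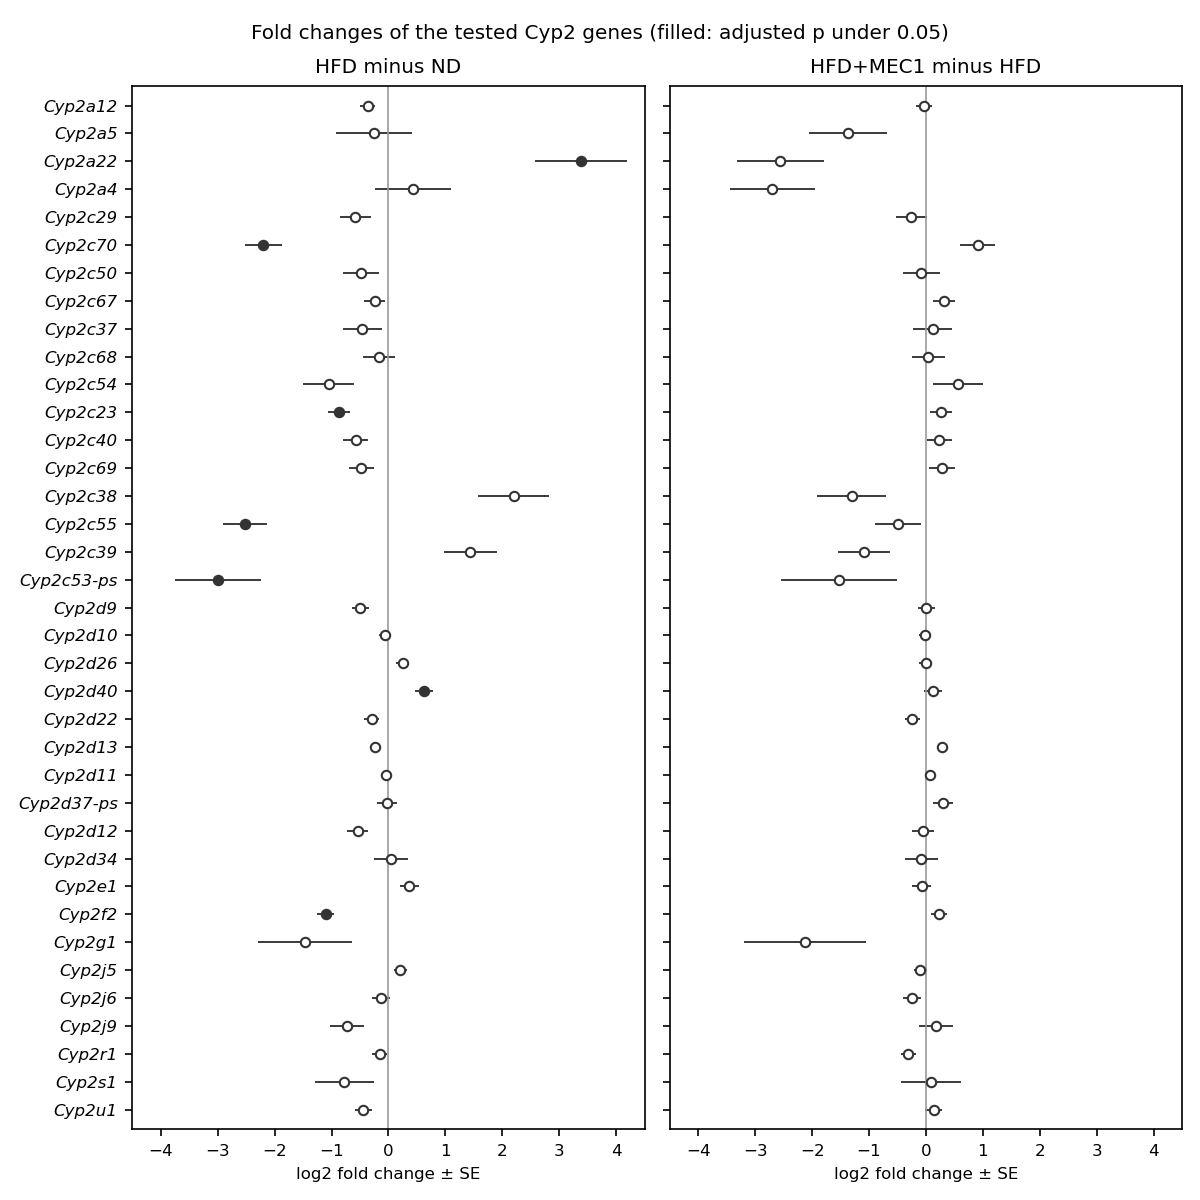
Log2 fold change ± SE of the 37 tested members for HFD minus ND (left) and HFD+MEC1 minus HFD (right), grouped by subfamily, filled where the edgeR adjusted p was under 0.05. The left panel has 7 filled points, 5 of them below 0, and the right panel has none.

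Cyp2f2, known for the bioactivation of naphthalene and, in mouse liver, for expression in periportal hepatocytes (chromosome 7, 27119909 to 27133660, plus strand), had 509, 693, 563 and 842 CPM in replicates 1 to 4 of HFD+MEC1, 559, 539, 536 and 583 CPM in HFD and 983, 1341, 1255 and 1183 CPM in ND. All 8 libraries on HFD lay below all 4 on ND, and the HFD libraries were within a narrow range. The log2 fold change was -1.10 ± 0.15 for HFD minus ND (edgeR adjusted p = 0.000544) and -0.87 ± 0.15 for HFD+MEC1 minus ND (edgeR adjusted p = 0.00362). An antisense gene, Gm15883, covers 13.5% of its exonic bases on the opposite strand, and use of strand in counting is not stated. The 150 bases before its RefSeq transcription start are shown because this gene kept its call under every alternative tried in both comparisons with ND (RefSeq promoter, GRCm38.p6, chr7:27119805-27119954, plus strand). None of the motifs searched, which are given with the Cyp2c promoters, occurs in its window of 300 bases.
Cyp2f2: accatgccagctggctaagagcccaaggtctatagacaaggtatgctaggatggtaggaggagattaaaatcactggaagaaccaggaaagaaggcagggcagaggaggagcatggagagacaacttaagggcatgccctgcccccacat

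Because Cyp2f2 is a zonal gene, markers of liver zones are given beside it. The background over all tested genes was 3.35% called higher and 2.95% lower, with a median log2 fold change of -0.0035. Of 16 periportal markers 8 fell on HFD, 0 rose and 8 did not pass, with a median log2 fold change of -0.59. Hal, which degrades histidine, fell by 1.06 ± 0.13, Gls2, a liver glutaminase, by 0.84 ± 0.11, and Cps1, which starts the urea cycle, by 1.18 ± 0.22 on the log2 scale (edgeR adjusted p = 0.000231, 0.000507 and 0.00498). The summed level of the list, which Alb dominates, was 57171 to 78865 CPM in HFD+MEC1, 74741 to 83871 CPM in HFD and 74106 to 87352 CPM in ND, and none of its genes was at 0. Of 17 pericentral markers 3 rose, 1 fell and 13 did not pass, with a median of 0.27. Aldh1a1 rose by 0.80 ± 0.16, and the P450 gene Cyp1a2 fell by 1.20 ± 0.21 (edgeR adjusted p = 0.00723 and 0.00523). The part of zonation in the change of Cyp2f2 was not tested.

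**Figure D4:**
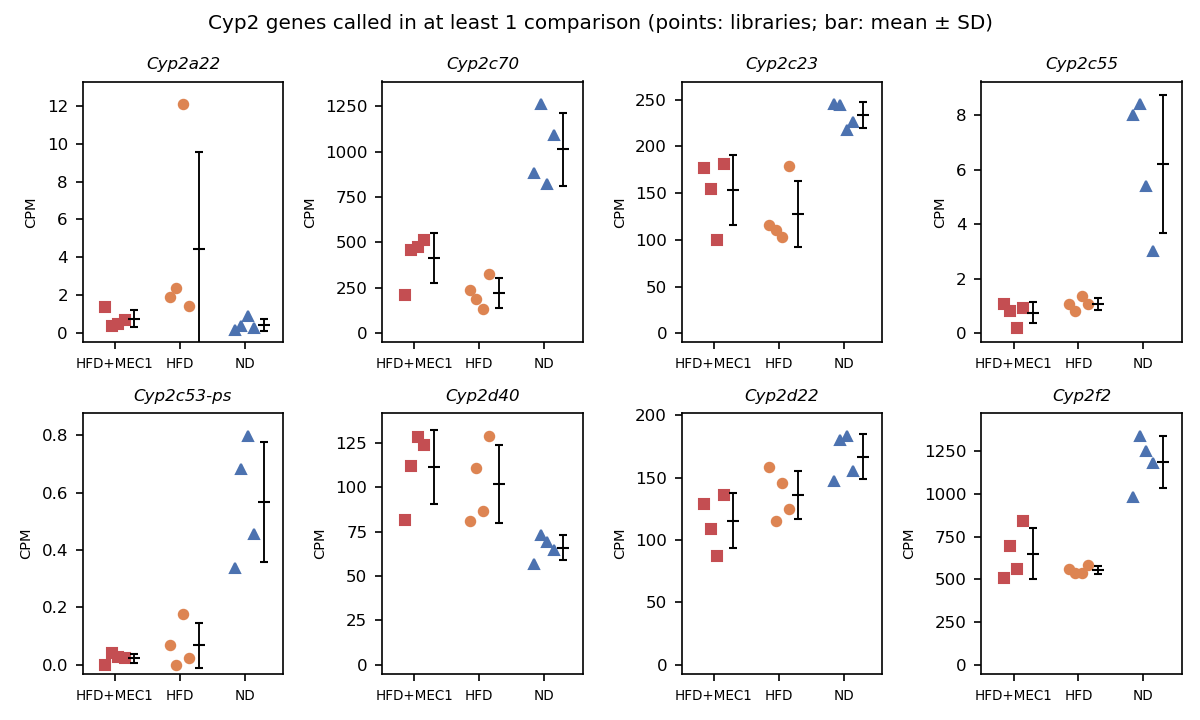
CPM of the 8 members called in at least 1 comparison, each point a library in the order of replicates 1 to 4, with the mean ± SD of 4 libraries beside them, for HFD+MEC1, HFD and ND from left to right. The ND libraries of Cyp2f2, Cyp2c70, Cyp2c55, Cyp2c23 and Cyp2c53-ps lie above all others, and those of Cyp2d40 below all others. For Cyp2a22, 1 HFD library carries most of the HFD mean.

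Of the 14 tested Cyp2c members, 4 fell on HFD, 0 rose and 10 did not pass, and the fold change was negative in 12. The background was 2.95% of all tested genes called lower, 3.35% called higher and 50.6% with a negative fold change. Cyp2c70, the mouse enzyme that turns chenodeoxycholic acid into muricholic acid (chromosome 19, 40153353 to 40187333, minus strand), had 212, 457, 477 and 515 CPM in HFD+MEC1, 237, 189.6, 132 and 324 CPM in HFD and 880.3, 1259, 820.1 and 1090.2 CPM in ND. Every ND library was above every library on HFD, and HFD+MEC1 replicate 1 lay within the HFD range while its other 3 libraries lay above it. HFD minus ND gave a log2 fold change of -2.20 ± 0.32 (edgeR adjusted p = 0.00284). Cyp2c70 kept that call in each of the 20 alternatives tried, with log2 fold changes from -2.44 to -2.02.

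Cyp2c55, which hydroxylates arachidonic acid (chromosome 19, 39007019 to 39042693, plus strand), was a rare transcript with 1.08, 0.825, 0.205 and 0.917 CPM in HFD+MEC1, 1.06, 0.820, 1.37 and 1.06 CPM in HFD and 8.02, 8.39, 5.39 and 3.00 CPM in ND. The ND libraries were again above all others, and HFD+MEC1 replicate 3 was the lowest of the 12. Its log2 fold change was -2.52 ± 0.39 for HFD minus ND (edgeR adjusted p = 0.00187) and -3.01 ± 0.40 for HFD+MEC1 minus ND (edgeR adjusted p = 0.000972). All 20 alternatives kept both calls, although the size was smaller on log2(RPKM + 1), where low genes are compressed. The miRNA gene Gm23800 covers 3.21% of its exonic bases on the opposite strand.

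Cyp2c23, an arachidonic acid epoxygenase (chromosome 19, 44005022 to 44029208, minus strand), had 177, 154, 99.998 and 181 CPM in HFD+MEC1, 116, 110.5, 103 and 179 CPM in HFD and 245, 244, 217 and 226 CPM in ND. The ND libraries formed a tight group above the rest, and HFD replicate 4 lay with the higher HFD+MEC1 libraries. Its log2 fold change was -0.87 ± 0.19 for HFD minus ND (edgeR adjusted p = 0.0173), and the adjusted p was 0.0525 without ND replicate 1, 0.0559 without HFD replicate 2 and 0.0618 without HFD replicate 3. HFD+MEC1 minus ND gave -0.61 ± 0.19 (edgeR adjusted p = 0.0947), also without overlap.

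The pseudogene Cyp2c53-ps (chromosome 19, 39229254 to 39274985, plus strand) had 0, 2, 1 and 1 counts in HFD+MEC1, 3, 0, 9 and 1 counts in HFD and 15, 29, 33 and 22 counts in ND. Its log2 fold changes, -2.995 ± 0.76 for HFD minus ND and -4.52 ± 0.89 for HFD+MEC1 minus ND, rest on these few counts and depend on the prior count (edgeR adjusted p = 0.0263 and 0.00808). The first call was lost without any 1 of ND replicates 2, 3 and 4 and HFD replicates 1, 2 and 4, with adjusted p from 0.0581 to 0.0738. It overlaps Cyp2c29 on the same strand over 7.96% of its exonic bases.

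Cyp2c29, a known CAR target and the highest Cyp2c gene per transcript length over the 12 libraries, though below Cyp2c70 in ND (chromosome 19, 39269405 to 39330713, plus strand), had 713, 329, 248 and 555 CPM in HFD+MEC1, 556, 562, 585 and 497 CPM in HFD and 819, 1039, 819.7 and 614 CPM in ND. All HFD libraries were below all ND libraries, but the log2 fold change of -0.58 ± 0.28 did not pass (edgeR adjusted p = 0.258). It passed with only the 2 diets in the fit (adjusted p = 0.0168). Of the 7 other Cyp2c members with a negative fold change and no call, the log2 fold changes ran from -1.05 for Cyp2c54 to -0.17 for Cyp2c68.

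Cyp2c38 and Cyp2c39 were the Cyp2c members with positive fold changes. Cyp2c38 (chromosome 19, 39389556 to 39463075, minus strand) had 50.2, 7.21, 10.4 and 15.2 CPM in HFD+MEC1, 39.5, 49.3, 85.9 and 30.7 CPM in HFD and 13.03, 12.8, 12.2 and 6.72 CPM in ND. Every HFD library was above every ND library, and HFD+MEC1 spanned both, with replicate 1 at the HFD level. The log2 fold change of HFD minus ND was 2.20 ± 0.62 (edgeR adjusted p = 0.0728). DESeq2 called it (adjusted p = 0.00462), as did edgeR without robust estimates (adjusted p = 0.0196). Its neighbour Cyp2c39, which hydroxylates retinoic acid, had a log2 fold change of 1.44 ± 0.47 (edgeR adjusted p = 0.0849), and passed with DESeq2 (adjusted p = 0.0278) and with only the 2 diets in the edgeR fit (adjusted p = 0.0396).

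A sum over related genes does not depend on how reads were divided among them, though reads dropped as ambiguous would be missing from it. The 4 genes Cyp2c40, Cyp2c67, Cyp2c68 and Cyp2c69 summed to 677 ± 229 CPM in HFD+MEC1, 579.7 ± 50.3 CPM in HFD and 694 ± 142 CPM in ND. Cyp2c37, Cyp2c50 and Cyp2c54, known as members that CAR activators induce, summed to 963 ± 468 CPM, 922 ± 183 CPM and 1356 ± 274 CPM in HFD+MEC1, HFD and ND. The HFD range of the second set, 689 to 1130 CPM, lay just below its ND range of 1134 to 1754 CPM, and HFD+MEC1 ran from 418 to 1395 CPM across both. None of these 7 genes passed in the fit of all 3 groups, and Cyp2c40 passed in HFD minus ND with only the 2 diets in the edgeR fit (adjusted p = 0.0266).

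The promoters of the Cyp2c cluster are shown for genes that share the HNF4 core and differ in fold change, with Cyp2c55 beside them. Motifs were searched on both strands of RefSeq windows of 250 bases before to 50 bases after the start, of which 38 belonged to 36 members. They were the HNF4 core CAAAGTCCA, the HNF1 site GTTAAT, the C/EBP motif TTGCNNAA, the STAT motif TTCNNNGAA, the CAR and PXR site AGTTCA and the TATA motif TATAAA, and overlaps between motifs were allowed. The HNF4 core occurred in 15.8% of the members' windows (6 of 38) and in 0.475% of all 32851 windows. All 6 were Cyp2c genes: Cyp2c40, Cyp2c65, Cyp2c67, Cyp2c68, Cyp2c69 and Cyp2c70. The 250 upstream bases of Cyp2c68 and Cyp2c69 are 91.3% identical, so these windows are not independent. Cyp2c70, at 45.2% identity to Cyp2c69, is not part of that near-identical set. In the sequences the HNF4 core, HNF1 site, C/EBP, STAT, CAR and PXR site and TATA motifs are in capitals, each as found on either strand. The windows lie on the minus strand at chr19:40187287-40187436 (Cyp2c70), chr19:39649043-39649192 (Cyp2c67), chr19:39741102-39741251 (Cyp2c68) and chr19:39886770-39886919 (Cyp2c69), and on the plus strand at chr19:39006869-39007018 (Cyp2c55).
Cyp2c70: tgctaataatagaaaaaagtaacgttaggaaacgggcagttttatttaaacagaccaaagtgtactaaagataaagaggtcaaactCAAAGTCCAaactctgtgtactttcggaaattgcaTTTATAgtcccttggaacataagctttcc
Cyp2c67: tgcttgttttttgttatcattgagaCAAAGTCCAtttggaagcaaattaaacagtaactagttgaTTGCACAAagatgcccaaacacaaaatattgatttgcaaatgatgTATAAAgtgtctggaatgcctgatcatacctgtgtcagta
Cyp2c68: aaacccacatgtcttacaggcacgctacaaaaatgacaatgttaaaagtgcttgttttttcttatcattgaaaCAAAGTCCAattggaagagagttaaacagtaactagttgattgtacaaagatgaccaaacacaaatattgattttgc
Cyp2c69: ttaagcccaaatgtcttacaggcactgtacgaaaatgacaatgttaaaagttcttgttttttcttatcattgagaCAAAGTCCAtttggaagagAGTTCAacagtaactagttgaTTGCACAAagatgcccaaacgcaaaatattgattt
Cyp2c55: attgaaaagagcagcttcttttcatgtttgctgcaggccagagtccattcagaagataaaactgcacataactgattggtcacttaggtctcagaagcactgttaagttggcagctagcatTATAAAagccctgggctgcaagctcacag

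The 5 tested genes with the HNF4 core had log2 fold changes of HFD minus ND of -2.20 for Cyp2c70, -0.58 for Cyp2c40, -0.47 for Cyp2c69, -0.24 for Cyp2c67 and -0.17 for Cyp2c68, and only that of Cyp2c70 passed. Cyp2c55, at -2.52 in the same comparison, has none in its window. A TATA motif was found in 55.3% of the members' windows against 13.6% of all, the C/EBP motif in 21.1% against 10.8%, the HNF1 site in 15.8% against 7.10%, the CAR and PXR site in 13.2% against 14.0% and the STAT motif in 5.26% against 8.30%. These matches are letters in a window and were not tested as binding sites.

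Of the 10 tested Cyp2d members, 1 rose on HFD, 0 fell and 9 did not pass, where 3.35% of all tested genes were called higher and 2.95% lower. Cyp2d40 (chromosome 15, 82759833 to 82764183, minus strand) had 81.6, 112, 128 and 124 CPM in HFD+MEC1, 81.3, 111, 86.7 and 129 CPM in HFD and 56.7, 73.2, 69.2 and 64.7 CPM in ND. All 8 libraries on HFD were above all ND libraries, and the groups on HFD overlapped almost fully. The log2 fold change was 0.63 ± 0.16 for HFD minus ND (edgeR adjusted p = 0.0299) and 0.76 ± 0.16 for HFD+MEC1 minus ND (edgeR adjusted p = 0.0145). The first call was lost without ND replicate 1, 3 or 4 or HFD replicate 2 or 4 (adjusted p from 0.0639 to 0.0937). The second was lost without ND replicate 1 or 4 or HFD+MEC1 replicate 3 (adjusted p from 0.0518 to 0.0534). Part of its transcript, 13.4% of windows, matches the pseudogene Cyp2d41-ps.

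Cyp2d9, the highest Cyp2d gene per transcript length and a testosterone hydroxylase known as male-predominant in mouse liver (chromosome 15, 82433437 to 82456845, plus strand), had 891, 954, 726 and 1078 CPM in HFD+MEC1, 1061, 958, 868 and 754 CPM in HFD and 1070.4, 1328, 1534 and 1194 CPM in ND. All HFD libraries were just below all ND libraries. The log2 fold change of -0.49 ± 0.15 missed the threshold (edgeR adjusted p = 0.0608); DESeq2 gave an adjusted p of 0.0124, and edgeR with only the 2 diets gave 0.0329. Of 14 genes known as male-biased in liver, 6 fell on HFD, 0 rose and 8 did not pass, with a median of -0.69. Of 13 tested genes known as female-biased, 2 rose, 3 fell and 8 did not pass, with a median of -0.76. Over all tested genes 3.35% were called higher and 2.95% lower.

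Cyp2d22, often described as the mouse counterpart of human CYP2D6 (chromosome 15, 82370527 to 82380260, minus strand), had 129, 109, 87.5 and 136 CPM in HFD+MEC1, 158, 115, 145 and 125 CPM in HFD and 148, 180.4, 183 and 155 CPM in ND. HFD overlapped both other groups, and all HFD+MEC1 libraries were below all ND libraries. Its log2 fold change was -0.53 ± 0.14 for HFD+MEC1 minus ND (edgeR adjusted p = 0.0352), a call that 10 of the 20 alternatives lost, among them library totals (adjusted p = 0.103), HFD+MEC1 replicate 3 left out (0.0717) and HFD+MEC1 replicate 2 left out (0.0792). It was also lost without ND replicate 2 (0.0924), 3 (0.0758) or 4 (0.0634). HFD minus ND gave -0.29 ± 0.13 (edgeR adjusted p = 0.228). The other 7 Cyp2d members ran from -0.54 for Cyp2d12 to 0.25 for Cyp2d26 in HFD minus ND.

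Of the 4 Cyp2a members, 1 rose on HFD, 0 fell and 3 did not pass, where 3.35% of all tested genes were called higher and 2.95% lower. Cyp2a22 (chromosome 7, 26931631 to 26939384, minus strand) had 1.40, 0.393, 0.513 and 0.711 CPM in HFD+MEC1, 1.91, 2.37, 12.1 and 1.46 CPM in HFD and 0.158, 0.377, 0.894 and 0.290 CPM in ND. All HFD libraries were above all others, and replicate 3 was far above the other 3. The log2 fold change of HFD minus ND was 3.38 ± 0.81 (edgeR adjusted p = 0.0312) and 2.16 without HFD replicate 3 (adjusted p = 0.0387). The call was lost without ND replicate 1 (0.0884), 2 (0.0818) or 4 (0.104), with limma-voom (0.126), on log2(RPKM + 1) (0.114) and with only the 2 diets in the fit (0.0699).

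Cyp2a12, which rehydroxylates secondary bile acids in mice and is the highest Cyp2a gene per transcript length (chromosome 7, 27029081 to 27037375, plus strand), had 318, 316, 291 and 409 CPM in HFD+MEC1, 343, 322, 416 and 285 CPM in HFD and 405, 513, 436 and 405 CPM in ND. The groups overlapped, and the log2 fold change of HFD minus ND was -0.36 ± 0.13 (edgeR adjusted p = 0.124). Together with Cyp2a22, with which it shares windows, it summed to 334 ± 51.7 CPM in HFD+MEC1, 346 ± 59.7 CPM in HFD and 440.3 ± 51.2 CPM in ND.

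Cyp2a5, the coumarin hydroxylase (chromosome 7, 26835305 to 26843548, plus strand), had 101, 27.7, 12.4 and 80.1 CPM in HFD+MEC1, 168, 137, 220.4 and 44.7 CPM in HFD and 131, 281, 135 and 133 CPM in ND. Its near copy Cyp2a4, a testosterone hydroxylase known as female-biased (chromosome 7, 26307169 to 26315088, plus strand), had 0.148, 0.236, 0 and 0.459 CPM in HFD+MEC1, 0.528, 1.04, 3.43 and 0.574 CPM in HFD and 0.610, 1.32, 0.870 and 1.32 CPM in ND. HFD+MEC1 replicate 3 was the lowest of all libraries for both genes, and HFD replicate 3 was the highest HFD library for all 4 Cyp2a genes. HFD minus ND was -0.25 ± 0.67 for Cyp2a5 and 0.44 ± 0.67 for Cyp2a4, neither past the threshold (edgeR adjusted p = 0.877 and 0.768). The sign for Cyp2a4 turned without HFD replicate 3, at -0.53.

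The upstream regions of Cyp2a4 and Cyp2a5 are shown to make the closeness of these genes visible. Their 250 upstream bases are 97.6% identical, while those of Cyp2a4 and Cyp2a12 are 48.1% identical. Both carry a C/EBP motif and a TATA motif, in capitals, within 150 bases (RefSeq, GRCm38.p6, plus strand, chr7:26307042-26307191 for Cyp2a4 and chr7:26835189-26835338 for Cyp2a5).
Cyp2a4: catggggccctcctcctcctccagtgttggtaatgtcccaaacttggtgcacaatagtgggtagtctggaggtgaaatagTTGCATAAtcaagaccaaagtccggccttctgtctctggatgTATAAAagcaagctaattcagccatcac
Cyp2a5: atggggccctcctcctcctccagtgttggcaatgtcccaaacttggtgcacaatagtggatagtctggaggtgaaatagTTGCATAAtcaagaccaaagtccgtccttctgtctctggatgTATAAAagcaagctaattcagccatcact

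Outside Cyp2a, Cyp2c, Cyp2d and Cyp2f no member had a call in HFD minus ND. Cyp2e1 (chromosome 7, 140763739 to 140774987, plus strand) had 5620.2, 3489, 3480.2 and 5056 CPM in HFD+MEC1, 5055, 4727, 5109 and 3714 CPM in HFD and 3564, 4039, 3714 and 3086 CPM in ND. HFD replicate 4 and HFD+MEC1 replicates 2 and 3 lay within the ND range and the other libraries on HFD above it. For HFD minus ND this gave 0.37 ± 0.17 on the log2 scale (edgeR adjusted p = 0.243). Cyp2j5, an arachidonic acid epoxygenase (chromosome 4, 96628773 to 96664154, minus strand), had 679, 542, 563 and 721 CPM in HFD+MEC1, 684, 683, 659.8 and 652 CPM in HFD and 634, 617, 504 and 563 CPM in ND. All its HFD libraries were above all ND libraries by a small margin, at 0.21 ± 0.11 (edgeR adjusted p = 0.323).

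Cyp2r1, which hydroxylates vitamin D (chromosome 7, 114549682 to 114562972, minus strand), had 12.3, 11.8, 11.5 and 10.96 CPM in HFD+MEC1, 15.4, 12.9, 12.4 and 16.98 CPM in HFD and 17.97, 17.7, 12.3 and 16.2 CPM in ND. Every HFD+MEC1 library was below every HFD library, and HFD overlapped ND. Cyp2u1, a fatty acid hydroxylase (chromosome 3, 131288441 to 131303227, minus strand), had 14.6, 17.6, 13.7 and 13.3 CPM in HFD+MEC1, 16.6, 14.9, 10.8 and 11.5 CPM in HFD and 17.8, 14.9, 18.8 and 21.4 CPM in ND. HFD minus ND was -0.15 ± 0.13 for Cyp2r1 and -0.44 ± 0.15 for Cyp2u1 (edgeR adjusted p = 0.560 and 0.0915). Cyp2u1 passed without HFD replicate 1 (adjusted p = 0.0482). It has 10.5% of its exonic bases opposite 4930534D22Rik.

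Cyp2g1, known from olfactory mucosa (chromosome 7, 26808892 to 26821205, plus strand), had 0, 1, 0 and 4 counts in HFD+MEC1, 7, 0, 5 and 12 counts in HFD and 16, 20, 21 and 6 counts in ND. Cyp2s1, known from epithelia outside the liver (chromosome 7, 25802475 to 25816913, minus strand), had 0.170, 0.177, 0.359 and 0.413 CPM in HFD+MEC1, 0.184, 0.388, 0.158 and 0.309 CPM in HFD and 0.316, 0.636, 0.290 and 0.538 CPM in ND. In these libraries 0.0590 to 0.0770 CPM stand for 3 counts, so both were close to the limit of counting. HFD minus ND was -1.46 ± 0.83 for Cyp2g1 and -0.77 ± 0.52 for Cyp2s1 (edgeR adjusted p = 0.340 and 0.430). Among untested members, Cyp2ab1 had 10, 0, 0 and 0 counts in HFD+MEC1, 0, 0, 0 and 2 in HFD and 6, 0, 0 and 0 in ND, and Cyp2t4 had 0 to 4 counts in every library.

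HFD+MEC1 livers were set against HFD livers, which had the same diet and vehicle in place of the compound. The Cyp2a genes were lower and Cyp2c70 higher in HFD+MEC1 by point estimate, but of 37 members 0 passed the test with edgeR, against 0.0282% of all tested genes, 0.00706% higher and 0.0212% lower. At an unadjusted p under 0.05 there were 6 members, 2 higher and 4 lower, where the background was 14.8% in all, 6.87% higher and 7.96% lower. DESeq2 called 2, Cyp2a4 (adjusted p = 0.00838) and Cyp2a22 (adjusted p = 0.0401), both lower. It gave an adjusted p to 35 members and called 2.77% of the 13638 genes with one, 1.03% higher and 1.74% lower. The median log2 fold change of the members was -0.01, against 0.01 over all tested genes, and 20 of 37 were negative, against 48.9% of all tested genes. Groups did not overlap for 4 members, where 7.11% of all tested genes had no overlap, 3.13% higher and 3.98% lower: Cyp2d13 was higher, and Cyp2a22, Cyp2a4 and Cyp2r1 were lower in every HFD+MEC1 library.

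All 4 Cyp2a members had a negative fold change in HFD+MEC1 minus HFD. It was -2.70 ± 0.75 for Cyp2a4, -2.56 ± 0.76 for Cyp2a22, -1.37 ± 0.69 for Cyp2a5 and -0.03 ± 0.13 for Cyp2a12 (edgeR adjusted p = 0.138, 0.171, 0.394 and 0.933). Without HFD replicate 3, the highest HFD library of all 4 genes, Cyp2a4 was at -1.73 and Cyp2a22 at -1.34, and Cyp2a12 turned to 0.07. As a set that shares reads, Cyp2a4 and Cyp2a5 summed to 55.4 ± 42.0 CPM in HFD+MEC1, 144 ± 74.8 CPM in HFD and 171 ± 74.4 CPM in ND. The lowest HFD library, at 45.3 CPM, lay within the HFD+MEC1 range of 12.4 to 101 CPM.

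Of the 14 Cyp2c members, 8 had a positive and 6 a negative fold change in HFD+MEC1 minus HFD, and none passed. Cyp2c70 gave 0.91 ± 0.31 (edgeR adjusted p = 0.206) and Cyp2c38 -1.31 ± 0.60 (edgeR adjusted p = 0.353), each with a sign opposite to its HFD minus ND value. Both comparisons share the HFD libraries. Without HFD+MEC1 replicate 1, whose Cyp2c70 and Cyp2c38 levels lay within the HFD ranges, 3 members passed: Cyp2c70 at 1.13 (edgeR adjusted p = 0.0330), Cyp2c38 at -2.23 (edgeR adjusted p = 0.0330) and Cyp2c39. With that library left out 460 of 14364 tested genes passed in all, against 4 of 14172 with it. Leaving out a library that lay with HFD for these genes enlarges their differences by construction. No member passed with any other library of HFD or HFD+MEC1 left out.

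Levels varied more among the HFD+MEC1 libraries than in the other groups for Cyp2c and for the members as a whole. This was not shown to be particular to these members. Over all genes with enough counts, chi-square per gene between replicates was 70.7 to 422 in HFD+MEC1. In HFD it was 68.0 to 270, and in ND 35.9 to 57.9. Over the 12 Cyp2c members that averaged at least 1 RPKM, the median coefficient of variation of CPM was 42.7% in HFD+MEC1, 19.1% in HFD and 21.1% in ND; for 9 Cyp2d members it was 16.03%, 14.3% and 10.8%. It was 45.7%, 33.9% and 27.7% for 2 Cyp2a members, 16.9%, 20.1% and 11.3% for 3 Cyp2j members and 22.9%, 16.2% and 15.1% for all 30 members of that level, in the same order. Replicate 3 was the lowest HFD+MEC1 library for 10 of the 14 Cyp2c members, at a median of 0.516 times the mean of the other 3. Replicate 1 was the highest for 8 of them, at a median of 1.56 times. Replicate 3 had the highest and replicate 1 the lowest acute phase sum of their group. Replicates 2 and 4 had similar acute phase sums, 47644 and 44339 CPM, but Cyp2c medians of 0.761 and 1.37 times the mean of the other 3. In ND, replicate 2 had the highest acute phase sum, 39453 CPM, and was the highest ND library for 10 of the 14 Cyp2c members. Of the 25 acute phase genes all had a positive fold change in HFD+MEC1 minus HFD, with a median of 1.03, and 0 passed. Their part in the spread of the Cyp2c genes was not tested. Leaving out HFD+MEC1 replicate 3 left 0 members called in HFD+MEC1 minus HFD and 3 in HFD+MEC1 minus ND. Of the 14359 genes of that fit, 0 and 459 were called in these comparisons.

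**Figure D5:**
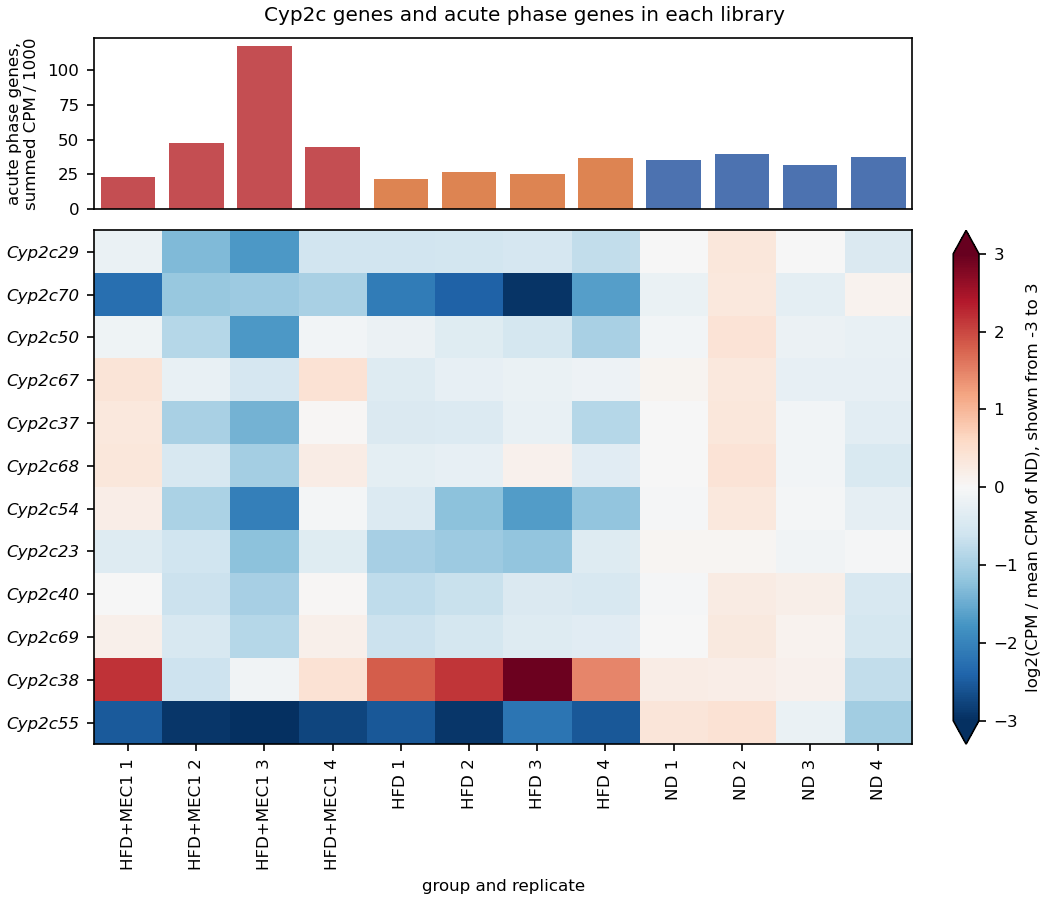
Top, summed CPM of 25 acute phase genes in each library, with bars from 0; bottom, log2 of CPM over the mean CPM of ND for the 12 Cyp2c members that averaged at least 1 RPKM, with colours shown from -3 to 3. HFD+MEC1 replicate 3 has the tallest bar at 117589 CPM and low values for most Cyp2c genes, Cyp2c70 and Cyp2c55 are low in all libraries on HFD, and Cyp2c38 is high in all HFD libraries and in HFD+MEC1 replicate 1.

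Among abundant members of the other subfamilies, Cyp2e1 was at -0.08 ± 0.17, Cyp2d9 at 0.00 ± 0.15, Cyp2f2 at 0.23 ± 0.15 and Cyp2j5 at -0.10 ± 0.11 (log2 fold change ± SE), and the 10 Cyp2d members ran from -0.24 to 0.30. None of these passed the test, which does not show that the levels were equal. Cyp2d13 was at 0.29 ± 0.08 with all HFD+MEC1 libraries between 72.4 and 77.7 CPM and all HFD libraries between 55.1 and 65.6 CPM (edgeR adjusted p = 0.143). Cyp2r1 was at -0.31 ± 0.13 (edgeR adjusted p = 0.299).

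Set against ND, HFD+MEC1 livers carry both the diet and the compound. In this comparison 6 of 37 members passed, 5 lower and 1 higher, where 4.54% of all tested genes were called, 2.15% higher and 2.40% lower. Cyp2f2, Cyp2c70, Cyp2c55, Cyp2c53-ps and Cyp2d22 were lower and Cyp2d40 higher. Groups did not overlap for 12 members, 11 lower and 1 higher, against 11% of all tested genes, 5.84% lower and 5.13% higher. At an unadjusted p under 0.05 there were 17 members, 2 higher and 15 lower, where the background was 19.1% in all, 9.47% higher and 9.61% lower. The median log2 fold change was -0.37, and 26 of 37 were negative, against 49.4% of all tested genes. Cyp2c70 gave -1.29 ± 0.31 (edgeR adjusted p = 0.0399), a call lost without ND replicate 1 (0.0752), 2 (0.103) or 4 (0.0978), without HFD+MEC1 replicate 2 (0.0752), 3 (0.0921) or 4 (0.0603), with limma-voom (0.0625) and with no filter on low counts (0.0650).

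Another 6 members, without a call, had all 4 HFD+MEC1 libraries under all 4 ND libraries. They were Cyp2a5 at -1.62 ± 0.69, Cyp2a4 at -2.26 ± 0.75, Cyp2c23 at -0.61 ± 0.19, Cyp2d12 at -0.59 ± 0.19, Cyp2g1 at -3.59 ± 1.01 and Cyp2j9 at -0.56 ± 0.30 on the log2 scale (edgeR adjusted p from 0.0545 to 0.326). DESeq2 called 13 of 37 members here, 1 higher and 12 lower, where 7.77% of the 14698 genes it gave an adjusted p were called, 3.69% higher and 4.08% lower. Without any 1 library of ND or HFD+MEC1, edgeR called 3 to 8 members. It called 3 without ND replicate 4 or HFD+MEC1 replicate 3 and 8 without HFD+MEC1 replicate 4. All genes called in those fits were 334 of 14330, 459 of 14359 and 436 of 14368, in that order.

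The background for the lists of partner genes in HFD minus ND is the 6.30% called over all tested genes. Of 15 genes that supply electrons and haem to these enzymes 1 rose, 1 fell and 13 did not pass in HFD minus ND, with a median log2 fold change of 0.10. Por, the reductase that serves all microsomal P450 enzymes, had 101, 73.1, 80.8 and 117 CPM in HFD+MEC1, 57.8, 64.1, 79.2 and 79.3 CPM in HFD and 105, 121, 120.0 and 116 CPM in ND. All HFD libraries were below all ND libraries, and HFD+MEC1 overlapped both. It fell by 0.72 ± 0.14 on the log2 scale in HFD minus ND (edgeR adjusted p = 0.00638) and stood at 0.41 ± 0.14 in HFD+MEC1 minus HFD (edgeR adjusted p = 0.189). Cpox, a haem synthesis enzyme, rose by 0.49 ± 0.10 on HFD (edgeR adjusted p = 0.00877). Alas1, which sets the rate of haem synthesis, was at 0.07 ± 0.43, and the electron carrier Cyb5a at 0.17 ± 0.13 (edgeR adjusted p = 0.948 and 0.510).

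Of 27 genes known to regulate Cyp2 genes, 2 rose, 0 fell and 25 did not pass in HFD minus ND, with a median of 0.01, and 0 passed in HFD+MEC1 minus HFD. The count in HFD minus ND is near the 6.30% called over all tested genes. Ppara, the fatty acid receptor, rose by 0.70 ± 0.11, and Nr0b2, the small heterodimer partner induced by bile acids, by 1.11 ± 0.25 (edgeR adjusted p = 0.00187 and 0.0213). The receptors Nr1i3 (CAR) and Nr1i2 (PXR) were at 0.31 ± 0.19 and 0.07 ± 0.11 in HFD minus ND and at -0.21 ± 0.19 and 0.10 ± 0.11 in HFD+MEC1 minus HFD. Hnf4a was at -0.07 ± 0.12 and 0.31 ± 0.12 in the same comparisons. None of these 3 passed in either.

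Of 21 tested genes from other P450 subfamilies 2 rose, 3 fell and 16 did not pass in HFD minus ND, and 0 passed in HFD+MEC1 minus HFD. Cyp2b9 and Cyp4a14 rose, and Cyp1a2, Cyp3a11 and Cyp7b1 fell. Of 11 tested genes for epoxide and eicosanoid metabolism, which act on products of Cyp2c and Cyp2j enzymes, 1 rose and 10 did not pass in HFD minus ND. That gene was Ephx2, the soluble epoxide hydrolase, at 0.45 ± 0.11 (edgeR adjusted p = 0.0255), and the microsomal hydrolase Ephx1 was at 0.29 ± 0.19 (edgeR adjusted p = 0.418). In HFD+MEC1 minus HFD, Ephx2 was at -0.14 ± 0.11 and Ephx1 at -0.47 ± 0.19, neither past the threshold.

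Markers of cells other than hepatocytes did not pass in HFD minus ND in any of 5 lists. The summed level of 12 macrophage markers was 483 to 655 CPM in HFD+MEC1, 418 to 651 CPM in HFD and 345 to 513 CPM in ND, with 11 of 12 fold changes positive in HFD minus ND. The sums of 12 sinusoidal endothelial markers were 553 to 609.6 CPM, 458 to 593 CPM and 345 to 550.1 CPM, those of 12 stellate cell markers 235 to 397 CPM, 177 to 435 CPM and 298 to 461 CPM, those of 9 cholangiocyte markers 50.8 to 105 CPM, 53.5 to 72.2 CPM and 77.7 to 106 CPM, and those of 12 lymphocyte markers 19.7 to 24.7 CPM, 14.4 to 21.2 CPM and 14.0 to 19.1 CPM, each in HFD+MEC1, HFD and ND. In HFD minus ND, fold changes were positive for 10 of 12 endothelial, 6 of 12 stellate and 8 of 11 tested lymphocyte markers. They were negative for 7 of 9 cholangiocyte markers, whose HFD sums all lay below their ND sums. In HFD+MEC1 minus ND, Itgam and Clec4g were higher and Epcam was lower (edgeR adjusted p = 0.0420, 0.0306 and 0.0148). They were the only calls of the 5 lists in that comparison, each in a different list. The background there was 4.54% of all tested genes called, 2.15% higher and 2.40% lower. No gene of these lists was at 0 in all libraries of a group. The part of such cells in the results was not tested.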

How the data were processed

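Liver RNA from 12 samples was sequenced, 4 each of HFD+MEC1, HFD and ND; the sample titles give groups and replicate numbers. Per the file headers, the authors deposited a table of whole-number counts by gene symbol for every sample, and RPKM values in a table of the whole series. The submitters' processing notes name STAR 2.7.10a and mm10. The counting tool, its annotation, its treatment of reads that match several genes and its use of strand are not given in the sources used here. The RPKM table also holds 12 columns that match no sample, which were not used.

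Low counts were filtered by filterByExpr (edgeR 4.0.16, R 4.3.3), leaving 14172 genes with 99.98% of the counts. Libraries were scaled with TMM factors, and a robust quasi-likelihood model was fitted to all 3 groups at once; the common coefficient of biological variation was 0.200. The 3 differences between groups were tested two-sided, with Benjamini-Hochberg adjustment across the whole table, and called at 0.05. SE is the absolute log2 fold change over the square root of F, and the prior count of fitted folds was 0.125. CPM came from these scaled counts; RPKM, as deposited, was used to compare levels between genes. The code was checked on counts simulated from means and spreads fitted to these libraries, with changes planted in HFD. Such a check cannot show that the model suits the real data. Alternatives were DESeq2 1.42.0, limma-voom (limma 3.58.1), limma on log2(RPKM + 1) and log2(RPKM + 0.1) with a minimum mean of 0.1 RPKM, other scalings, no filter, no robust estimates, a replicate block, 2 groups only and each library left out. A library was left out only for comparisons that include its group.

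Nothing in the labels pairs same-numbered samples, and the correlations of their deviations from group means ran from -0.0942 to 0.133, so they were treated as unpaired. Replicates differed beyond counting error in every group (chi-square per gene 35.9 to 422). Values in every library are given for members called in any comparison, highest in their subfamily by RPKM, or among the 5 largest absolute fold changes of HFD minus ND or HFD+MEC1 minus HFD. Other members named singly were chosen after their values were seen. Of the gene lists, called genes and Por, Cyb5a, Alas1, Nr1i3, Nr1i2, Hnf4a, Ephx1 and Ephx2 are named. Members, lists and rules were chosen with earlier results of these data known. Annotation and shared 50-base windows came from GENCODE M21 (GRCm38), in which Cyp2d13 has no entry, and promoters from RefSeq (GRCm38.p6).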

Additional observations from a re-analysis of the deposited data

Results flagged for a closer look

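Among 111 sets of 4 libraries (37 tested members in 3 groups), 7 held a library far from the other 3 by Dixon's test at the 95% level, which is 6.31%; chance gives about 1 in 20. Cyp2a22 had 12.1 CPM in HFD replicate 3, above 1.46 to 2.37 CPM in its group. Cyp2a5 had 281 CPM in ND replicate 2, where the other ND libraries had 131 to 135 CPM. Cyp2c38 had 6.72 CPM in ND replicate 4, below the 12.2 to 13.03 CPM of the others. Cyp2j9 had 5.49 CPM in ND replicate 1, above 2.86 to 3.20 CPM.

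In HFD+MEC1, Cyp2d13 had 77.7 CPM in replicate 1 against 72.4 to 72.7 CPM, and Cyp2j6 had 76.9 CPM in replicate 4 against 48.5 to 52.8 CPM. Cyp2d11 had 62.7 CPM in HFD replicate 3, and 56.6 to 57.5 CPM in the other HFD libraries.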

How the results depend on the processing

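In HFD minus ND the members called were 7, and 11 with only the 2 groups in the fit; leaving out 1 library gave 4 to 7. All genes called were 893, 1373 with DESeq2 and 423 to 911 with 1 library left out. In HFD+MEC1 minus HFD the members called were 0, 2 with DESeq2 and 0 to 3 with 1 library left out. All genes called there were 4, and 0 with library totals, 17 with no filter, 378 with DESeq2, 2 with limma-voom, 1 on log2(RPKM + 1) with or without a filter, 0 on log2(RPKM + 0.1), 0 without robust estimates, 2 with only the 2 groups and 0 to 460 with 1 library left out. In HFD+MEC1 minus ND the members called were 6, 13 with DESeq2 and 3 to 8 with 1 library left out, and all genes 644, 1142 with DESeq2, 390 on log2(RPKM + 1) without a filter and 334 to 678 with 1 library left out. The cause of these moves was not tested.

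With the replicate block the members called were 7, 0 and 6 in the 3 comparisons and all genes 896, 21 and 716; the samples share only a number. Library totals in place of TMM factors shifted the median of all genes by 0.12 in HFD minus ND and made 79.5% of called genes higher, against 53.2%, but the members stayed at 2 higher and 5 lower; in HFD+MEC1 minus ND the split was 66.8% against 47.2%. On log2(RPKM + 1) the splits were 72.1% and 62.4%.

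No called value changed sign. For HFD+MEC1 minus HFD, Cyp2d9 was at 0.0028, and at -0.050 with library totals, -0.0036 with limma-voom and -0.015 on either RPKM scale and without a filter. With 1 library left out it ran from -0.083 to 0.10, Cyp2a12 from -0.14 to 0.074, Cyp2e1 from -0.21 to 0.027 and Cyp2s1 from -0.15 to 0.36. For HFD minus ND, Cyp2a5 ran from -0.54 to 0.096 and Cyp2a4 from -0.53 to 0.70. For HFD+MEC1 minus ND, Cyp2c38 ran from -0.030 to 1.18.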
